A study of Mus musculus with 10 samples.

Results

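The genes described here are 9 genes of the Lin28 and let-7 pathway and the HMGA family: Lin28a, Lin28b, Trim71, Dis3l2, Hmga1, Hmga2, Igf2bp1, Igf2bp2 and Igf2bp3. They were chosen by name, as regulators and targets of the let-7 miRNAs, with earlier results of these data known. They are 9 of 19375 genes that could be named in the RNA-seq table.

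Lin28a and Lin28b are RNA-binding proteins of early embryonic cells that hold back the maturation of let-7 miRNAs by binding the loop of the let-7 precursor; terminal uridylyl transferases then add a tail to the bound precursor, and the exonuclease Dis3l2 degrades it. Mature let-7 pairs through its seed with sites in the 3′ untranslated regions (3′UTR) of mRNAs and lowers them, and its known targets include Lin28a and Lin28b themselves, the RNA-binding ubiquitin ligase Trim71, the chromatin protein Hmga2 and the mRNA-binding proteins of the Igf2bp family. In embryonic stem cells (ESC) the Lin28 proteins are abundant and mature let-7 is scarce, and let-7 builds up as cells differentiate.

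RNA was sequenced from cultured C57BL/6 mouse ESC of 3 genotypes. WT cells carried no mutation of Dido1, the gene that encodes the DIDO proteins. DIDO3ΔE16 cells lacked exon 16, which among the DIDO proteins is specific to DIDO3. DIDO3ΔCT+HADIDO3 cells carried an earlier C-terminal deletion, which affects the same exon, and expressed HA-tagged DIDO3 from an added construct. All were grown in serum with leukemia inhibitory factor, on mitomycin-treated mouse embryonic fibroblasts or on gelatin, and the labels do not say which surface served for which sample. Cells with the C-terminal deletion and no HADIDO3 were not part of the RNA-seq, so the effects of the deletion and of the added DIDO3 cannot be told apart.

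A match to the let-7 seed occurs in 8 of the 9 genes, all but Dis3l2. RefSeq (GRCm38.p6) lists 12 let-7 and miR-98 genes of the mouse, and 11 of them matched a mature 5p entry, with 9 different sequences. All 11 entries hold the same bases 2 to 8, GAGGUAG, shown in capitals in 5 members of the family that differ in the other bases. They lie at chr13:48538239-48538260 (let-7a-5p, reverse strand), chr13:48536078-48536099 (let-7d-5p, reverse strand), chr17:17830366-17830387 (let-7e-5p, forward strand), chr9:106178846-106178867 (let-7g-5p, forward strand) and chrX:151913229-151913250 (miR-98-5p, forward strand).
let-7a-5p: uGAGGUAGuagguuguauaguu
let-7d-5p: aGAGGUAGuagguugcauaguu
let-7e-5p: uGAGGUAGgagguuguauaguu
let-7g-5p: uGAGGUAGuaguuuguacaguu
miR-98-5p: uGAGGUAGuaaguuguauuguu

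The part of the precursor that Lin28 proteins bind is the loop between the mature 5p and 3p arms, in which the letters GGAG are a known Lin28 contact. Of 11 loops read from the same table, 8 hold GGAG, in capitals in the first 3 loops printed here, and Mirlet7b, Mirlet7c-2 and Mir98 do not. The loops printed lie at chr13:48538210-48538238 (Mirlet7a-1, reverse strand), chr16:77599694-77599716 (Mirlet7c-1, forward strand), chr17:17830388-17830410 (Mirlet7e, forward strand) and chr15:85706638-85706663 (Mirlet7c-2, forward strand). The RNA-seq table has no feature named for any of the 12 let-7 and miR-98 genes, so no level of let-7 is given.
Mirlet7a-1: uuagggucacacccaccacugGGAGauaa
Mirlet7c-1: uagaguuacacccugGGAGuuaa
Mirlet7e: gaggaagacacccgaGGAGauca
Mirlet7c-2: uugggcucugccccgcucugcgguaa

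The match to this seed in an mRNA is CTACCTC, which was searched on the transcribed strand of the longest annotated 3′UTR of each gene (GENCODE M21, GRCm38). It occurs at least once in 1897 of 21020 genes with an annotated 3′UTR (9.02%). It occurs in 8 of the 9 genes described here, at 21 places in all. Hmga2 holds 4 matches in a 3′UTR of 3014 bases, a number reached by 0.18% of the 1113 genes, itself included, whose 3′UTR is within 10% of that length. Lin28b holds 4 in 4445 bases, a number reached by 0.494% of 607 genes of like length. Trim71 holds 4 in 5512 bases (0.261% of 383 genes), but only 2 of them fall in the region where its RNA was measured. Igf2bp1 holds 4 in 6337 bases (0.41% of 244 genes), and Lin28a holds 2 in 2775 bases (2.01% of 1194 genes). Hmga1, Igf2bp2 and Igf2bp3 hold 1 each, where 8.46%, 11.3% and 14.3% of the genes of like length hold at least 1, and Dis3l2, with a 3′UTR of 350 bases, holds 0. A match describes these letters and is not a measured binding site. Since the 9 genes were chosen as regulators and targets of let-7, these shares are a description and not a test. The matches shown, with 9 bases on either side and the match in capitals, are the 2 of Lin28a and the most upstream match of Lin28b, Trim71, Hmga1, Hmga2 and Igf2bp3, since the RNA of these genes was measured alike within groups, for Hmga2 as the sum over its sites.
Lin28a (chr4:134005181-134005205, reverse strand): cctgttgaaCTACCTCatttttgcc
Lin28a (chr4:134004543-134004567, reverse strand): gccacaaacCTACCTCactgtgttg
Lin28b (chr10:45381014-45381038, reverse strand): gcgggaagtCTACCTCatgcaagca
Trim71 (chr9:114512464-114512488, reverse strand): gcctaagtcCTACCTCagcttaaat
Hmga1 (chr17:27563283-27563307, forward strand): gttcacaaaCTACCTCtggacggtt
Hmga2 (chr10:120364216-120364240, reverse strand): attcaatttCTACCTCagcatcagt
Igf2bp3 (chr6:49086779-49086803, reverse strand): tttactcaaCTACCTCaggtattca

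Each group was represented by 3 libraries. Of the 10 samples in the labels, WT replicates 2 and 3 have the same library description and were counted as 1 library, called WT replicate 2-3. Values of WT libraries are given in the order of replicates 1, 2-3 and 4, and those of the other groups in the order of replicates 1, 2 and 3. By the flow cell identifiers in the library descriptions, WT replicates 1 and 4 were run on another family of flow cells than the other 7 libraries. For this reason the fold changes of the 9 genes from WT are also given against WT replicate 2-3 alone, in a fit where this lone library is assumed to vary like the mutant libraries. Nothing in the labels says that replicates are separate cultures, so the p-values measure the spread between these samples, which may be technical. Nor do the labels say that several ESC lines stand for a genotype, so effects of genotype and of cell line cannot be told apart.

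RNA was measured over 43031 features, which are annotated 3′UTRs of UCSC transcripts extended by 2 kb, in TPM, a share of the library that is corrected for feature length. Features with identical coordinates were summed to a site, which gave 28730 sites. The 9 genes have 33 features at 16 sites, and the site with the highest mean TPM of each gene is called its main site. Bases in features came to 2.26, 1.95 and 1.97 Gb in the WT libraries, 1.46, 1.93 and 2.15 Gb in DIDO3ΔE16 and 2.26, 2.15 and 2.61 Gb in DIDO3ΔCT+HADIDO3, so that 1 TPM corresponded to 0.434 to 0.775 reads over each base. No counting interval is given, since read counts were not used here. Groups were compared by limma on log2(TPM + 0.1) of sites above 0 in every library compared, after the libraries were scaled to each other, and every fold change is on that scale. The TPM values printed are not scaled, so a fold change can differ from their ratio. For Lin28a in DIDO3ΔCT+HADIDO3, for example, the log2 fold change was −0.84 with scaling and −0.73 without. A site was called changed where its log2 fold change reached 0.7 in either direction with an adjusted p, over all sites tested, under 0.05.

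Dido1, the mutated gene, has 3 sites on the reverse strand of chromosome 2 (mm10). The most distal site (uc008ojq.2, chr2:180655963-180659338) had 17.9, 16.8 and 13.7 TPM in WT, 0.546, 0.511 and 0.307 in DIDO3ΔE16 and 12.1, 11.5 and 10.9 in DIDO3ΔCT+HADIDO3. The site upstream of it (uc008ojt.2, chr2:180663936-180669364) had 4.90, 4.78 and 4.79 TPM in WT, 90.6, 96.1 and 81.7 in DIDO3ΔE16 and 8.65, 7.30 and 8.44 in DIDO3ΔCT+HADIDO3. The most proximal site (uc008ojv.2, chr2:180678954-180683548) had 51.6, 50.8 and 48.5 TPM in WT, 6.16, 7.05 and 6.65 in DIDO3ΔE16 and 46.6, 43.9 and 43.8 in DIDO3ΔCT+HADIDO3. At each of the 3 sites the DIDO3ΔE16 libraries lay apart from all others, while those of DIDO3ΔCT+HADIDO3 lay closer to WT without overlapping it.

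The label of ESC was checked against 8 marker genes, whose summed TPM was 4065, 5288 and 4012 in WT, 6105, 5714 and 5616 in DIDO3ΔE16 and 6480, 4575 and 6138 in DIDO3ΔCT+HADIDO3. Tdgf1 was the most abundant of them, at 2081 to 2400 TPM in the 9 libraries, and Sox2 had 386 to 485 TPM. Esrrb and Nanog, at sites of 3 and 4 features with identical coordinates, varied within groups and moved these sums. So did Pou5f1, at a site of 2 such features, with 168, 180 and 484 TPM in WT, 205 to 258 in DIDO3ΔE16 and 193 to 221 in DIDO3ΔCT+HADIDO3. Esrrb had 5.18, 1155 and 8.78 TPM in WT, 1230 to 1271 in DIDO3ΔE16 and 1903, 9.7 and 1684 in DIDO3ΔCT+HADIDO3, and Nanog had 664, 676 and 3.1 TPM in WT, 1016 to 1177 in DIDO3ΔE16 and 769 to 785 in DIDO3ΔCT+HADIDO3. Of these markers only Zfp42 was called in a comparison with WT, at a log2 fold change of 1.65 in DIDO3ΔCT+HADIDO3 (SE 0.05; adjusted p = 9.02e-05, limma with Benjamini-Hochberg). Of 10 markers of fibroblasts, the cells of a feeder layer, 5 were called higher in DIDO3ΔE16 among 8 tested (10.2% of all sites), and in DIDO3ΔCT+HADIDO3 4 (Col1a1, Col1a2, Lox and Fbn1) were called lower and 1, Thy1, higher among 6 tested (7.24% and 10.1% of all sites). Of 4 markers of primitive endoderm, 2 (Gata4 and Gata6) were called lower in DIDO3ΔE16 and 3 (these and Sox17) in DIDO3ΔCT+HADIDO3 (4.94% and 7.24% of all sites), and their sum was 49.6, 65.2 and 74.3 TPM in WT against 22.2 to 29.7 and 21 to 22.9 in the mutants, with Gata4 the most abundant. Of 4 markers of primed epiblast, Otx2 fell by 2.25 in DIDO3ΔE16 and rose by 1.01 in DIDO3ΔCT+HADIDO3, where Pou3f1 fell by 1.0. The sum of these 4 was 257 to 266 TPM in WT, 223, 34.8 and 245 in DIDO3ΔE16 and 190 to 192 in DIDO3ΔCT+HADIDO3, with Dnmt3b as the most abundant gene in all libraries but DIDO3ΔE16 replicate 2. Of 3 neural markers, Sox1 rose by 1.95 in DIDO3ΔE16, Nes was not called, and Pax6 was at 0 in all 9 libraries. Their sum was 12.2 to 14.3 TPM in WT, 37.6 to 39.3 in DIDO3ΔE16 and 16.1 to 17.0 in DIDO3ΔCT+HADIDO3, with Sox1 the most abundant. In these bulk samples, fewer cells of a type and less RNA per cell cannot be told apart, and the part of the marker differences in the results on the 9 genes was not tested.

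In DIDO3ΔE16, compared with WT to see how cells without the exon differ from it, RNA of Lin28b, Hmga1 and Igf2bp3 was lower. RNA of Hmga2 was higher there, while Lin28a overlapped between the groups. These 4 changes were called among 9 genes tested, where 3191 of 21063 sites (15.1%) were called. Lower calls made up 3 of them, against 4.94% of all sites, and higher calls 1, against 10.2%. The libraries of the 2 groups did not overlap at 5 of the 9 genes, a share near that of all sites (49.4%). In DIDO3ΔCT+HADIDO3, compared with WT to see how cells with both the C-terminal deletion and added DIDO3 differ from WT, Lin28a was lower. It was called alone, 1 of 9 main sites, where 3612 of 20879 sites (17.3%) were called, 7.24% lower and 10.1% higher, and the groups did not overlap at 5 of the 9 (53.5% of all sites). Both comparisons use the same WT libraries. The mutant lines were also compared with each other, without WT and within the same family of flow cells, and Lin28a and Hmga2 were higher in DIDO3ΔE16 and Lin28b, Hmga1 and Igf2bp3 lower. These are 5 calls among 9 genes, where 5791 of 21172 sites (27.4%) were called, 13.9% higher and 13.4% lower, and the lines did not overlap at 6 of the 9 (61.6% of all sites). An adjusted p under 0.05 at any fold was reached by 5, 4 and 6 of the 9 genes in the 3 comparisons, and by 33.2%, 38.4% and 49.2% of all sites (limma with Benjamini-Hochberg). Without adjustment the same numbers of the 9 genes passed, and 43.4%, 47.3% and 55.2% of all sites. The median log2 fold change over all sites tested was −0.012, −0.014 and 0.011 in the 3 comparisons.

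**Figure D1:**
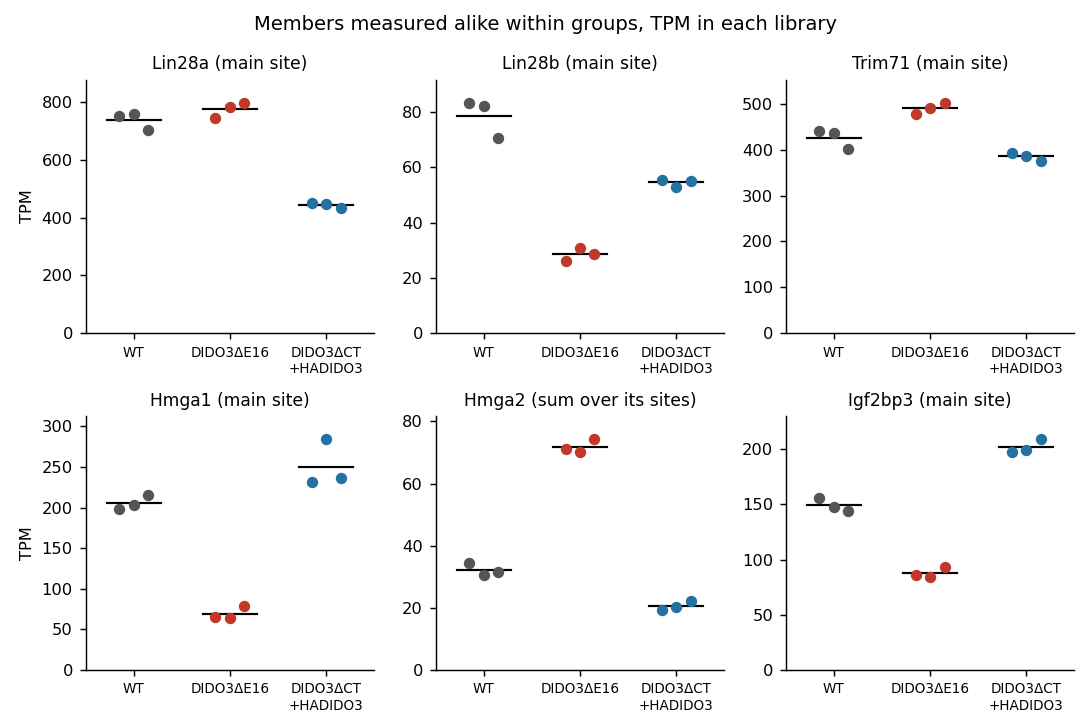
TPM (vertical axis, from 0) of the 6 genes measured alike within groups, Hmga2 as the sum over its sites and the others at their main site, by genotype (horizontal axis); points are single libraries and lines are group means. Lin28a lies at 434 to 451 TPM in DIDO3ΔCT+HADIDO3 and at 705 or more in all other libraries, and Hmga1 at 64.4 to 78.1 in DIDO3ΔE16 and at 198 or more elsewhere.

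Lin28a, the Lin28 protein best known from ESC, has a single feature, uc008vdw.1 (chr4:134001330-134006104, reverse strand), which shares no base with another feature. Its RNA measured 753, 760 and 705 TPM in WT, 746, 785 and 798 in DIDO3ΔE16 and 451, 447 and 434 in DIDO3ΔCT+HADIDO3. The WT and DIDO3ΔE16 libraries overlapped, and all 3 DIDO3ΔCT+HADIDO3 libraries lay far below both. The group means were 739 ± 30.2 (SD, n = 3), 776 ± 27.2 and 444 ± 8.53 TPM, so DIDO3ΔCT+HADIDO3 held 0.601 of the WT level. The log2 fold change in DIDO3ΔCT+HADIDO3 was −0.84 (SE 0.04; adjusted p = 0.000267, limma with Benjamini-Hochberg). Against WT replicate 2-3 alone the fold change was −0.88 on this scale (limma with Benjamini-Hochberg, adjusted p = 0.00991), and with quantile normalization it was −0.69, just under the fold threshold. From WT to DIDO3ΔE16 the log2 fold change was 0.01 (SE 0.04; adjusted p = 0.902, limma with Benjamini-Hochberg), and its sign changed with the scale of summation and with the libraries used (−0.04 against WT replicate 2-3 alone). Between the mutant lines the difference was 0.82, higher in DIDO3ΔE16 (SE 0.04; adjusted p = 9.35e-05, limma with Benjamini-Hochberg). Mean coverage of the Lin28a site was 286 to 508 reads per base.

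Lin28b, its paralogue, has its main site at uc007faa.2 (chr10:45374619-45381064, reverse strand). This site had 83.4, 82.3 and 70.5 TPM in WT, 26, 30.8 and 28.7 in DIDO3ΔE16 and 55.6, 52.8 and 55.2 in DIDO3ΔCT+HADIDO3. The 3 groups formed 3 separate levels, with WT highest and DIDO3ΔE16 lowest, and no library of a group entered the range of another. Means were 78.7 ± 7.16 (SD, n = 3), 28.5 ± 2.45 and 54.5 ± 1.49 TPM, so that 0.362 of the WT level was measured in DIDO3ΔE16 and 0.693 in DIDO3ΔCT+HADIDO3. The change from WT was −1.52 on the log2 scale in DIDO3ΔE16 (SE 0.09; adjusted p = 0.000425, limma with Benjamini-Hochberg) and −1.60 against WT replicate 2-3 alone. In DIDO3ΔCT+HADIDO3 it was −0.63 (SE 0.07; adjusted p = 0.00225, limma with Benjamini-Hochberg), which passed the p threshold and missed the fold threshold, and −0.70 against WT replicate 2-3 alone, which was not called either. DIDO3ΔE16 was also lower than DIDO3ΔCT+HADIDO3 in the direct comparison, by a log2 fold change of −0.92 (SE 0.07; adjusted p = 0.000345, limma with Benjamini-Hochberg). The other 2 sites of Lin28b stayed under 1 TPM in every library and were not called. Mean coverage of the main site ran from 11.3 to 55.9 reads per base.

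Of the paralogues, then, Lin28b was lowest in DIDO3ΔE16 and Lin28a lowest in DIDO3ΔCT+HADIDO3. Per feature length, Lin28a RNA stood above Lin28b RNA in every library. The RNA of Lin28a in DIDO3ΔCT+HADIDO3 at its lowest, 434 TPM, was still above the highest Lin28b value of any library, 83.4 TPM.

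Among all sites with a mean of at least 5 TPM and no overlap with a feature of the same strand, the 3 whose profile over the 9 libraries was most like that of Lin28a were at Mak16, Snx6 and G6pdx. The measure was the root mean square difference of centred log2 values, which was 0.048 for Mak16, 0.052 for Snx6 and 0.055 for G6pdx among 6600 sites, where the Lin28a profile itself had a root mean square of 0.395. Snx6, for example, had 147, 141 and 137 TPM in WT, 149, 152 and 162 in DIDO3ΔE16 and 80.9, 85.1 and 81.1 in DIDO3ΔCT+HADIDO3. Like Lin28a it was low in the last group, while its DIDO3ΔE16 libraries lay slightly above those of WT without overlap.

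Dis3l2, the exonuclease that degrades tailed let-7 precursors, has 2 sites on the forward strand of chromosome 1 that share bases, uc007bvu.2 (chr1:87048959-87051195) and uc007bvw.2 (chr1:87049746-87052097). The main site, uc007bvu.2, had 10.4, 21.5 and 0.959 TPM in WT, 8.16, 9.57 and 20.1 in DIDO3ΔE16 and 11, 18.7 and 11.2 in DIDO3ΔCT+HADIDO3. The libraries of WT spanned those of both mutants, so no change can be read from this site. Summed over both sites, Dis3l2 had 25, 21.6 and 3.37 TPM in WT, 20.6, 22.3 and 24.9 in DIDO3ΔE16 and 28.6, 42.3 and 33.3 in DIDO3ΔCT+HADIDO3. The sum put DIDO3ΔCT+HADIDO3 above every other library and WT replicate 4 far below the rest, and its log2 fold change in DIDO3ΔCT+HADIDO3 was 1.39 (SE 0.84; adjusted p = 0.248, limma with Benjamini-Hochberg). Between the lines, without WT, the sum was lower in DIDO3ΔE16 by a log2 fold change of −0.62 (SE 0.15; adjusted p = 0.0199, limma with Benjamini-Hochberg), which missed the fold threshold. At the main site the log2 fold change was 0.85 in DIDO3ΔE16 (SE 1.24; adjusted p = 0.642, limma with Benjamini-Hochberg) and 1.0 in DIDO3ΔCT+HADIDO3 (SE 1.21), and without WT replicate 4 these were −0.42 and −0.27. Against WT replicate 2-3 alone they were −0.96 and −0.81. Coverage of this site fell to 0.563 reads per base in WT replicate 4.

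Trim71, a let-7 target that is itself an RNA-binding repressor, has a single feature, uc009rxp.1 (chr9:114509273-114512644, reverse strand). It measured 442, 436 and 403 TPM in WT, 479, 492 and 503 in DIDO3ΔE16 and 394, 387 and 376 in DIDO3ΔCT+HADIDO3. The 3 groups did not overlap, with DIDO3ΔE16 above WT and DIDO3ΔCT+HADIDO3 below it, but the steps were small. On the log2 scale the change from WT was 0.14 in DIDO3ΔE16 (SE 0.04; adjusted p = 0.0333, limma with Benjamini-Hochberg) and −0.25 in DIDO3ΔCT+HADIDO3 (SE 0.05; adjusted p = 0.0121, limma with Benjamini-Hochberg). Against WT replicate 2-3 alone these were 0.10 and −0.28, with adjusted p-values of 0.144 and 0.0709 (limma with Benjamini-Hochberg). The size depended on the scaling, at 0.20 and −0.15 without scaling and 0.23 and −0.12 with quantile normalization, and in DIDO3ΔCT+HADIDO3 the p threshold was missed with either (adjusted p = 0.0525 and 0.0763, limma with Benjamini-Hochberg). Between the mutant lines it was 0.37 (SE 0.04; adjusted p = 0.00109, limma with Benjamini-Hochberg), and none of the 3 fold changes reached the fold threshold. Mean coverage was 208 to 320 reads per base.

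Hmga1, a chromatin protein that binds AT-rich DNA through AT-hooks, has its main site at uc012aod.1 (chr17:27562529-27565672, forward strand). It had 198, 203 and 215 TPM in WT, 64.7, 64.4 and 78.1 in DIDO3ΔE16 and 231, 284 and 236 in DIDO3ΔCT+HADIDO3. All DIDO3ΔE16 libraries were far below the rest, and those of DIDO3ΔCT+HADIDO3 lay above every WT library. With means of 205 ± 8.75 (SD, n = 3) and 69.1 ± 7.84 TPM, DIDO3ΔE16 held 0.337 of the WT level, a log2 fold change of −1.64 (SE 0.09; adjusted p = 0.000378, limma with Benjamini-Hochberg), and the same −1.64 against WT replicate 2-3 alone. In DIDO3ΔCT+HADIDO3, at 250 ± 29.1 TPM, it was 0.18 (SE 0.10; adjusted p = 0.214, limma with Benjamini-Hochberg), which was not called, and 0.19 against WT replicate 2-3 alone. This value was 0.28 without scaling and 0.32 with quantile normalization, which passed the p threshold (adjusted p = 0.0454, limma with Benjamini-Hochberg) and not the fold threshold. The direct comparison gave −1.84, lower in DIDO3ΔE16 (SE 0.12; adjusted p = 0.000202, limma with Benjamini-Hochberg). Another site, at which 13 features end (chr17:27562492-27565672), shares nearly all its bases with the main site and held little of the RNA, 0.641, 0.642 and 0.786 TPM in WT, 0.217, 0.221 and 0.248 in DIDO3ΔE16 and 0.932, 1.08 and 0.854 in DIDO3ΔCT+HADIDO3. It followed the main site, with a log2 fold change of −1.31 in DIDO3ΔE16 (SE 0.19; adjusted p = 0.00607, limma with Benjamini-Hochberg).

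The main site of Hmga1 also shares 1422 bp with a feature of AI413582 on the opposite strand (uc008bpe.1, chr17:27561769-27563950). AI413582 measured 1927, 2183 and 2202 TPM in WT, 2276, 2027 and 1901 in DIDO3ΔE16 and 1581, 1422 and 1352 in DIDO3ΔCT+HADIDO3. It overlapped between WT and DIDO3ΔE16, the groups that Hmga1 separates, and was lowest in DIDO3ΔCT+HADIDO3, where Hmga1 was highest. The libraries were stranded by the authors' description, while their StringTie command names no strand option, and how reads in the shared bases were divided between these genes was not tested.

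The 3 sites whose profile was most like that of Hmga1 were at Ipmk, Wwox and Ifi30, with root mean square differences of 0.129, 0.133 and 0.142 among 6601 sites, against 0.826 for the Hmga1 profile itself. Ifi30 had 53.6, 55.6 and 62.2 TPM in WT, 21.6, 22.8 and 23.9 in DIDO3ΔE16 and 78.8, 85.3 and 82.8 in DIDO3ΔCT+HADIDO3. As with Hmga1, the DIDO3ΔE16 libraries were lowest and those of DIDO3ΔCT+HADIDO3 highest, and the same held at Ipmk. At Wwox DIDO3ΔE16 was also lowest, but DIDO3ΔCT+HADIDO3 (8.18, 10.7 and 9.14 TPM) overlapped WT (9.76, 8.2 and 8.53).

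**Figure D2:**
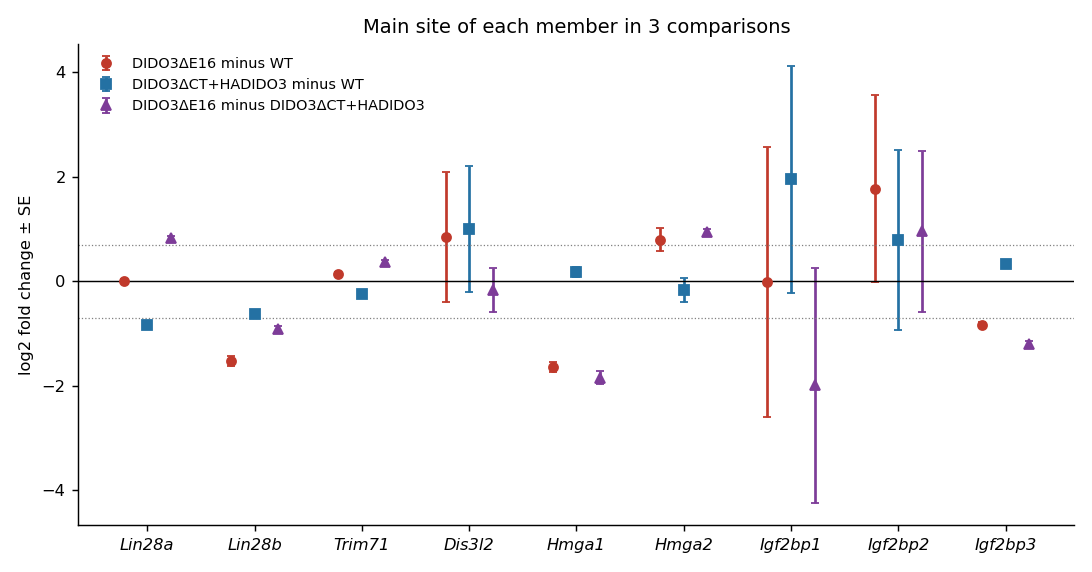
Log2 fold change (vertical axis) with its SE (bars) at the main site of each of the 9 genes (horizontal axis), for DIDO3ΔE16 minus WT (circles), DIDO3ΔCT+HADIDO3 minus WT (squares) and DIDO3ΔE16 minus DIDO3ΔCT+HADIDO3 (triangles); dotted lines mark the fold threshold of 0.7. Hmga1 lies at −1.64, 0.18 and −1.84, and the SE at Dis3l2, Igf2bp1 and Igf2bp2 reaches 1.24, 2.58 and 1.79.

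Hmga2, the HMGA protein most often cited as a let-7 target, has 2 sites with the same downstream end that share nearly all their bases, uc011xow.1 (chr10:120359275-120364288, reverse strand) and uc007hfb.1 (chr10:120359275-120364251). The main site, uc011xow.1, had 18.6, 30.4 and 17.5 TPM in WT, 39.8, 37.5 and 39.7 in DIDO3ΔE16 and 19.3, 20.2 and 22 in DIDO3ΔCT+HADIDO3. The other had 15.6, 0 and 13.8 TPM in WT, 30.8, 32.2 and 34.1 in DIDO3ΔE16 and 0 in all 3 DIDO3ΔCT+HADIDO3 libraries, and was not tested. WT replicate 2-3 is therefore the highest WT library at the main site and the lowest at the other. Summed over the gene, Hmga2 had 34.3, 30.5 and 31.4 TPM in WT, 71.0, 70.1 and 74.2 in DIDO3ΔE16 and 19.4, 20.3 and 22.1 in DIDO3ΔCT+HADIDO3. The sums lay close together within each group and the groups did not overlap, with DIDO3ΔE16 far above WT and DIDO3ΔCT+HADIDO3 below it.

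In the fit of gene sums, the log2 fold change of Hmga2 was 1.08 in DIDO3ΔE16 (SE 0.05; adjusted p = 0.000194, limma with Benjamini-Hochberg). In DIDO3ΔCT+HADIDO3 the gene sum had a log2 fold change of −0.72 (SE 0.06; adjusted p = 0.000793, limma with Benjamini-Hochberg), just past the fold threshold. Between the lines it was 1.79 (SE 0.05; adjusted p = 2.08e-05, limma with Benjamini-Hochberg). Other fits of the gene sums were chosen after seeing the data. Under them the value in DIDO3ΔE16 (1.05 to 1.16) and that between the lines (1.75 to 1.85) stayed called. The call in DIDO3ΔCT+HADIDO3 was lost without scaling (−0.64), with the flow cell family as a covariate (−0.66), against WT replicate 2-3 alone (−0.66), without WT replicate 1 (−0.68) and without DIDO3ΔCT+HADIDO3 replicate 1 (−0.69), each under the fold threshold. It was kept in the other 5, from −0.76 to −0.71. In DIDO3ΔE16 the value against WT replicate 2-3 alone was 1.14. The main site alone rose by 0.79 in DIDO3ΔE16 (SE 0.22; adjusted p = 0.0467, limma with Benjamini-Hochberg), a call that was lost in 12 of 21 alternatives, with adjusted p-values of 0.000194 to 0.297 over all 21 (limma with Benjamini-Hochberg). It was lost without WT replicate 1 (0.68), without WT replicate 4 (0.65) and without DIDO3ΔE16 replicate 1, 2 or 3 (0.77, 0.82 and 0.79). With all libraries kept, it was lost with no filter on low values, with single features, with moderation without trend or robust estimation and at an adjusted p of 0.01, each at the same fold change of 0.79. It was also lost with the flow cell family as a covariate (0.29), against WT replicate 2-3 alone (0.28) and with the replicate number as a block (0.65). In DIDO3ΔCT+HADIDO3 the main site had −0.17 (SE 0.23; adjusted p = 0.596, limma with Benjamini-Hochberg), and 0.08 without WT replicate 2-3. Against WT replicate 2-3 alone it was −0.68, and −0.67 with the flow cell family as a covariate, both with an adjusted p under 0.05 (limma with Benjamini-Hochberg) and under the fold threshold. The direct comparison at the main site gave 0.94 (SE 0.06; adjusted p = 0.000162, limma with Benjamini-Hochberg). A distant site of Hmga2, uc057axn.1 (chr10:120468290-120473185), held at most 0.499 TPM.

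The sum of the fibroblast markers, like Hmga2, was highest in DIDO3ΔE16. Their summed TPM was 99.3, 65.7 and 104 in WT, 204, 209 and 215 in DIDO3ΔE16 and 61.1, 65.3 and 67.1 in DIDO3ΔCT+HADIDO3, and DIDO3ΔCT+HADIDO3 overlapped WT at WT replicate 2-3, where Lox, at a site of 3 features, had 5.97 TPM against 37.9 and 38.5 in the other WT libraries. The 5 markers called higher in DIDO3ΔE16 were Col1a1 (log2 fold change 1.24), Col1a2 (1.0), Col3a1 (1.43), Postn (0.81) and Fbn1 (0.93), of which Col1a2 had 18.1, 16.7 and 20.0 TPM in WT, 36.5, 39.2 and 38.9 in DIDO3ΔE16 and 0.229, 0.246 and 0.242 in DIDO3ΔCT+HADIDO3. Lox was the most abundant in DIDO3ΔE16, at 85.3 to 92.2 TPM, and was not called there (2.05). Thy1 was the most abundant in DIDO3ΔCT+HADIDO3, at 52.2 to 56.1 TPM against 18.1 to 19.7 in WT, so it rose in the line in which Hmga2 was lowest. Acta2 went against the sum in DIDO3ΔE16, with 4.87, 3.91 and 4.86 TPM in WT and 3.37, 3.64 and 2.96 in DIDO3ΔE16, and its log2 fold changes of −0.50 there and −0.59 between the lines were not called. Col3a1 was at 0 in all DIDO3ΔCT+HADIDO3 libraries, Dcn was at 0 in all WT libraries and at most 0.129 TPM elsewhere, and Lum was at 0 in all libraries but DIDO3ΔCT+HADIDO3 replicate 2 (0.061 TPM). Their part in the level of Hmga2 was not tested.

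**Figure D3:**
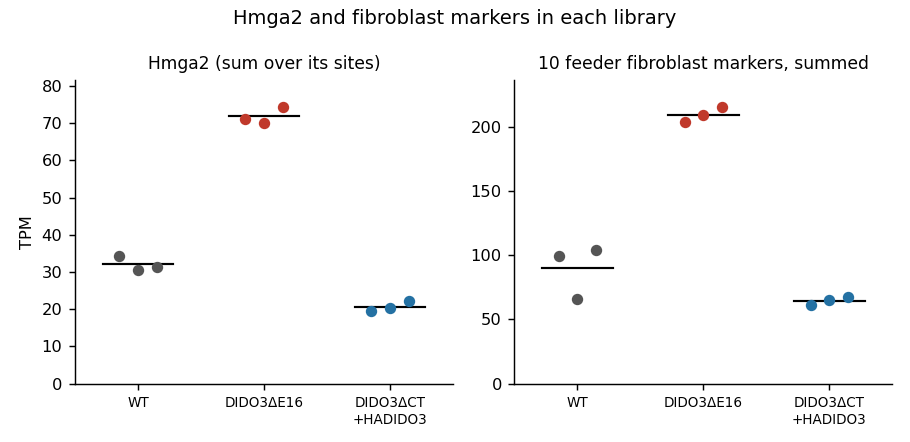
TPM (vertical axes, from 0) of Hmga2 summed over its sites and of 10 fibroblast markers summed, by genotype (horizontal axis); points are single libraries and lines are group means. In DIDO3ΔE16 Hmga2 lies at 70.1 to 74.2 TPM and the markers at 204 to 215 TPM, both above every library of the other groups.

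The Igf2bp genes encode mRNA-binding proteins of embryonic and growing cells that protect bound mRNAs from decay. Igf2bp3 has its main site at uc009bwi.2 (chr6:49083218-49087341, reverse strand). This site had 156, 148 and 144 TPM in WT, 86.1, 83.9 and 93.4 in DIDO3ΔE16 and 198, 199 and 209 in DIDO3ΔCT+HADIDO3. WT lay between the mutant lines, with DIDO3ΔE16 below and DIDO3ΔCT+HADIDO3 above, and no library of a group entered the range of another. Means were 149 ± 5.97 (SD, n = 3), 87.8 ± 4.96 and 202 ± 6.11 TPM. The log2 fold change was −0.83 in DIDO3ΔE16 (SE 0.05; adjusted p = 0.000437, limma with Benjamini-Hochberg), as it was against WT replicate 2-3 alone. In DIDO3ΔCT+HADIDO3 it was 0.34 (SE 0.03; adjusted p = 0.00145, limma with Benjamini-Hochberg), under the fold threshold, and again 0.34 against WT replicate 2-3 alone. Between the lines it was −1.19 (SE 0.05; adjusted p = 5.47e-05, limma with Benjamini-Hochberg).

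Igf2bp3 has a minor site far upstream, uc009bwk.2 (chr6:49165915-49168087), with 1.12, 1.62 and 1.51 TPM in WT, 0.741, 1.08 and 0.938 in DIDO3ΔE16 and 2.03, 2.56 and 1.93 in DIDO3ΔCT+HADIDO3. The groups stood in the same order there, and the direct comparison of the lines was called at −1.14 (SE 0.20, adjusted p = 0.00691, limma with Benjamini-Hochberg). The changes from WT at this site were not called, at −0.63 in DIDO3ΔE16 and 0.49 in DIDO3ΔCT+HADIDO3 (adjusted p = 0.0947 and 0.129, limma with Benjamini-Hochberg). On the opposite strand the main site overlaps a feature of Malsu1, which was at 0 TPM in all 9 libraries. Mean coverage of the main site was 37.4 to 162 reads per base.

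Igf2bp1 lies at a single site, listed as 3 features with identical coordinates (chr11:95955164-95963499, reverse strand). Its summed TPM was 7.38, 10.9 and 504 in WT, 607, 10.5 and 7.01 in DIDO3ΔE16 and 20.7, 387 and 370 in DIDO3ΔCT+HADIDO3. Every group held both high and low libraries, so the groups overlapped throughout. In the 4 high libraries 99.9% of the site's TPM stood in the most abundant of the 3 features, and in the 5 low libraries 34.9% to 37.3% did. The log2 fold change was −0.01 in DIDO3ΔE16 (SE 2.58; adjusted p = 0.998, limma with Benjamini-Hochberg) and 1.95 in DIDO3ΔCT+HADIDO3 (SE 2.17; adjusted p = 0.532, limma with Benjamini-Hochberg). Between the lines it was −1.99 (SE 2.25), and none of these can be told from 0 with this spread. Against WT replicate 2-3 alone the fold changes were 1.63 and 3.61. Leaving out single libraries gave −2.06 to 1.92 in DIDO3ΔE16, 0.84 to 3.90 in DIDO3ΔCT+HADIDO3 and −4.04 to −0.82 between the lines.

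Igf2bp2 is likewise listed as 3 features with identical coordinates (chr16:22057009-22060792, reverse strand). It had 213, 7.34 and 11.4 TPM in WT, 16.1, 219 and 232 in DIDO3ΔE16 and 105, 10 and 110 in DIDO3ΔCT+HADIDO3. High and low libraries again occurred in every group, and of the libraries that were high for Igf2bp1 only DIDO3ΔCT+HADIDO3 replicate 3 was high here. The most abundant feature held 99.7% to 100% of the TPM in 4 of the 5 high libraries, and 37.7% in the other, DIDO3ΔE16 replicate 3, against 35.1% to 36.1% in the 4 low libraries. The log2 fold change was 1.77 in DIDO3ΔE16 (SE 1.79; adjusted p = 0.499, limma with Benjamini-Hochberg), 0.79 in DIDO3ΔCT+HADIDO3 (SE 1.72) and 0.96 between the lines (SE 1.54). The values against WT replicate 2-3 alone were 3.58 and 2.61. Without single libraries they ran from 0.86 to 3.27, −0.12 to 2.29 and −0.18 to 2.22.

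Such spread within a group was rare at some kinds of site and common at others. Among sites with at least 10 TPM in some library, 21 of 6222 that hold 1 feature and share no base with another site on their strand (0.338%) differed by more than 10-fold within a group. Of sites with several features at the same coordinates, the kind of Igf2bp1 and Igf2bp2, 1138 of 4955 (23%) did. Of sites with 1 feature that share bases with another site on their strand, the kind of the main sites of Dis3l2, Hmga1, Hmga2 and Lin28b, 832 of 2216 (37.5%) did. Of these 4, only Dis3l2 varied to that extent.

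**Figure D4:**
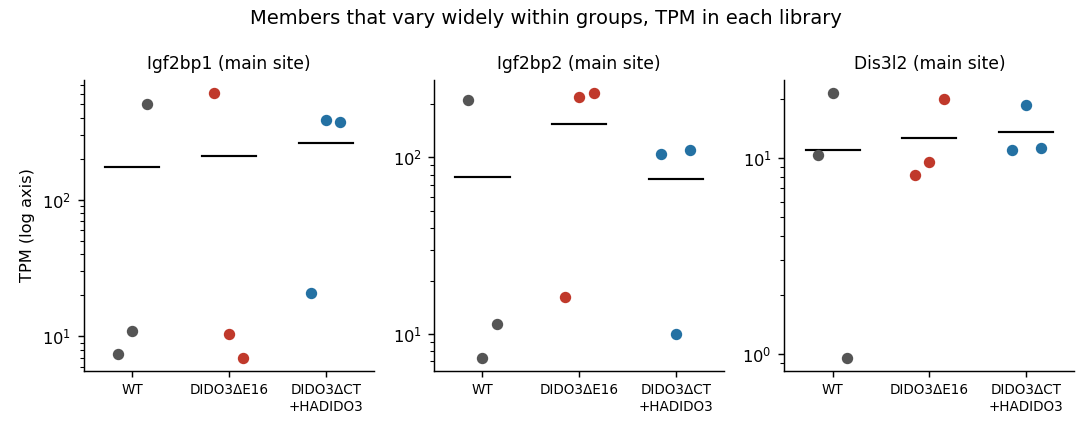
TPM (vertical axes, log scale) of Igf2bp1, Igf2bp2 and Dis3l2 at their main sites, by genotype (horizontal axis); points are single libraries and lines are group means. In each panel libraries of the same group lie far apart, such as 7.38 and 504 TPM within WT at Igf2bp1.

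TPM is per feature length, which includes the 2 kb added downstream, and on this scale the genes were ordered within a group. Annotated bases are unequal parts of the main sites, such as 237 of 2237 for Dis3l2 and 4446 of 6446 for Lin28b. An order per annotated length may differ and was not tested. In WT the order of main sites was Lin28a (705 to 760 TPM), Trim71 (403 to 442), Hmga1 (198 to 215), Igf2bp3 (144 to 156), Lin28b (70.5 to 83.4) and Hmga2 (17.5 to 30.4), with no overlap between neighbours. In DIDO3ΔCT+HADIDO3 the order was the same, again with no overlap, but Lin28a (434 to 451 TPM) and Trim71 (376 to 394) lay closer together. In DIDO3ΔE16 neighbours in the order changed places on this scale. Igf2bp3 (83.9 to 93.4 TPM) stood above Hmga1 (64.4 to 78.1), and Hmga2 (37.5 to 39.8) above Lin28b (26 to 30.8). Annotated bases make up 2124 of 4124 at Igf2bp3 and 1144 of 3144 at Hmga1, so the order of this pair can depend on the length used. The main site holds only part of the Hmga2 RNA, and summed over their sites Hmga2 (70.1 to 74.2 TPM) lay within the range of Hmga1 (64.6 to 78.4) in DIDO3ΔE16. Per feature length, Dis3l2 overlapped Hmga2 in WT and lay below these 6 genes in both mutant lines at its main site. Most bases of that site lie in the added 2 kb, so this place too can depend on the length used. The sum of Dis3l2 over both sites (28.6 to 42.3 TPM) lay above that of Hmga2 (19.4 to 22.1) in DIDO3ΔCT+HADIDO3. Igf2bp1 and Igf2bp2 could not be placed, because their libraries spanned the levels of several other genes.

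Genes of 6 pathway lists were described by their main sites. Over all sites tested, 10.2% were called higher and 4.94% lower in DIDO3ΔE16, 10.1% and 7.24% in DIDO3ΔCT+HADIDO3, and 13.9% and 13.4% between the lines. Of 13 genes of miRNA biogenesis and the Argonaute complex, 12 were tested, and their median log2 fold change was −0.26 in DIDO3ΔE16 and −0.28 in DIDO3ΔCT+HADIDO3. Of these 12, Ago4 was called higher in DIDO3ΔE16 (0.78; SE 0.20) and in DIDO3ΔCT+HADIDO3 (1.37; SE 0.19), at 0.754 to 0.935 TPM in WT. Prkra, a partner of Dicer1, was called lower in DIDO3ΔE16 (−0.74; SE 0.14). Ago2, the most abundant Argonaute, had 426 to 468 TPM in all 9 libraries and was not called. Dicer1 varied within DIDO3ΔE16, from 8.30 to 48.9 TPM, and was not called. The direct comparison of the lines called 1 gene higher in DIDO3ΔE16, Tnrc6c (1.16; SE 0.05), and 1 lower, Prkra (−1.39; SE 0.13), with a median of 0.03. Tnrc6c lies at a site of 3 features with identical coordinates and varied within WT, at 40.6, 134 and 39.9 TPM.

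Of 8 genes that tail let-7 precursors or otherwise regulate their processing, 1 was called in each comparison with WT, both times lower (4.94% and 7.24% of all sites were called lower), with medians of 0.03 in DIDO3ΔE16 and −0.19 in DIDO3ΔCT+HADIDO3. In DIDO3ΔE16 it was Msi1, an RNA-binding protein known to act with Lin28 on let-7 precursors, at 93.2, 93.2 and 104 TPM in WT, 56.1, 55.7 and 56.9 in DIDO3ΔE16 and 94.6, 96.9 and 90.9 in DIDO3ΔCT+HADIDO3 (log2 fold change −0.84; SE 0.06; adjusted p = 0.000815, limma with Benjamini-Hochberg). In DIDO3ΔCT+HADIDO3 it was Khsrp, which promotes let-7 maturation, at 361, 377 and 398 TPM in WT and 218, 216 and 203 in DIDO3ΔCT+HADIDO3 (−0.94; SE 0.07; adjusted p = 0.000591, limma with Benjamini-Hochberg). Msi1 was low in the line in which Lin28b was lowest, and Khsrp in the line in which Lin28a was lowest. Whether these changes are linked was not tested. The uridylyl transferase Tut7 had 28.6 to 38.7 TPM and was not called. Tut4, whose main site shares bases with another, was called between the lines, lower in DIDO3ΔE16 (−1.0; SE 0.20), as was Msi1 (−0.72; SE 0.04), and Khsrp was higher (0.72; SE 0.06), with a list median of 0.20.

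Of 22 other known let-7 targets, 1 rose and 1 fell in DIDO3ΔE16 (median −0.19), where 10.2% of all sites were called higher and 4.94% lower. In DIDO3ΔCT+HADIDO3 5 fell and 0 rose by limma (median −0.25), against 7.24% lower and 10.1% higher of all sites. At an unadjusted p under 0.05, in either direction and at any fold, 16 of the 22 passed in DIDO3ΔE16, 14 in DIDO3ΔCT+HADIDO3 and 14 between the lines, where 43.4%, 47.3% and 55.2% of all sites did. Ccnd2, a D-type cyclin, rose in DIDO3ΔE16 and fell in DIDO3ΔCT+HADIDO3, with 37.1, 37.0 and 38.1 TPM in WT, 63.0, 73.2 and 76.2 in DIDO3ΔE16 and 11.9, 11.7 and 11.5 in DIDO3ΔCT+HADIDO3. Its libraries stood in the same order of groups as the gene sum of Hmga2. Its log2 fold changes were 0.85 (SE 0.08; adjusted p = 0.00132) and −1.77 (SE 0.05; adjusted p = 8.77e-05, both by limma with Benjamini-Hochberg). The target that fell in DIDO3ΔE16 was Mycn (−0.79; SE 0.04), at 102 to 106 TPM in WT and 59.5 to 64.9 in DIDO3ΔE16. The other targets that fell in DIDO3ΔCT+HADIDO3 were Hras (−4.86; SE 0.23), Myc (−1.90; SE 0.16), Cdk6 (−0.75; SE 0.05) and Insr (−0.73; SE 0.09), the last named here after its value was seen. Hras lies at a site that shares bases with another, and varied within DIDO3ΔE16 from 23.3 to 65.2 TPM. How reads were divided between these sites was not tested, so the change at this site may not be that of all Hras RNA. Insr, at a site of 3 features with identical coordinates, varied within DIDO3ΔE16 from 4.12 to 31.5 TPM. Between the lines 4 of the 22 were called, all higher in DIDO3ΔE16 (13.9% of all sites): Hras (5.48), Ccnd2 (2.60), Myc (2.25) and Cdk6 (1.12), with a median of −0.07 over the list.

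Of 8 other high mobility group genes, 7 had a site (Hmga1b did not) and were tested. Called lower were 1 in DIDO3ΔE16 and 2 in DIDO3ΔCT+HADIDO3, where 4.94% and 7.24% of all sites were. Hmgn5 fell in DIDO3ΔE16 (−0.77; SE 0.15), and Hmgb2 (−1.97; SE 0.06) and Hmgn2 (−1.76; SE 0.05) fell in DIDO3ΔCT+HADIDO3. Hmgn2, a nucleosome-binding protein, had 230, 221 and 219 TPM in WT, 320, 262 and 279 in DIDO3ΔE16 and 68.8, 67.5 and 76.4 in DIDO3ΔCT+HADIDO3. In DIDO3ΔE16, where Hmga1 fell, the log2 fold change was −0.12 for Hmgb2 and 0.29 for Hmgn2, and neither was called. The list medians were −0.12 and −0.27, and 0.21 between the lines, where Hmgn2 (2.03), Hmgb2 (1.83) and Hmgb1 (0.83) were called higher in DIDO3ΔE16. Hmgb1 lies at a site of 3 features with identical coordinates and varied within WT, at 164, 20.2 and 146 TPM. Of 4 partners of Igf2bp1 in the complex that protects coding regions from decay (Hnrnpu, Syncrip, Ybx1 and Dhx9), 0 were called by limma in any comparison, with medians of 0.03, −0.31 and 0.24. At an unadjusted p under 0.05, whatever the fold, 2, 4 and 3 of these 4 passed, where 43.4%, 47.3% and 55.2% of all sites did. Of 14 let-7 genes and their hosts, only the hosts Wdr82 and Huwe1 had a site, and neither was called (0, 1 and 0 passed an unadjusted p under 0.05 in limma). Wdr82 varied within groups, from 266 to 544 TPM in WT, and Huwe1 had 93.2 to 107 TPM in all libraries, and the medians of this pair were −0.15, −0.07 and −0.11.

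**Figure D5:**
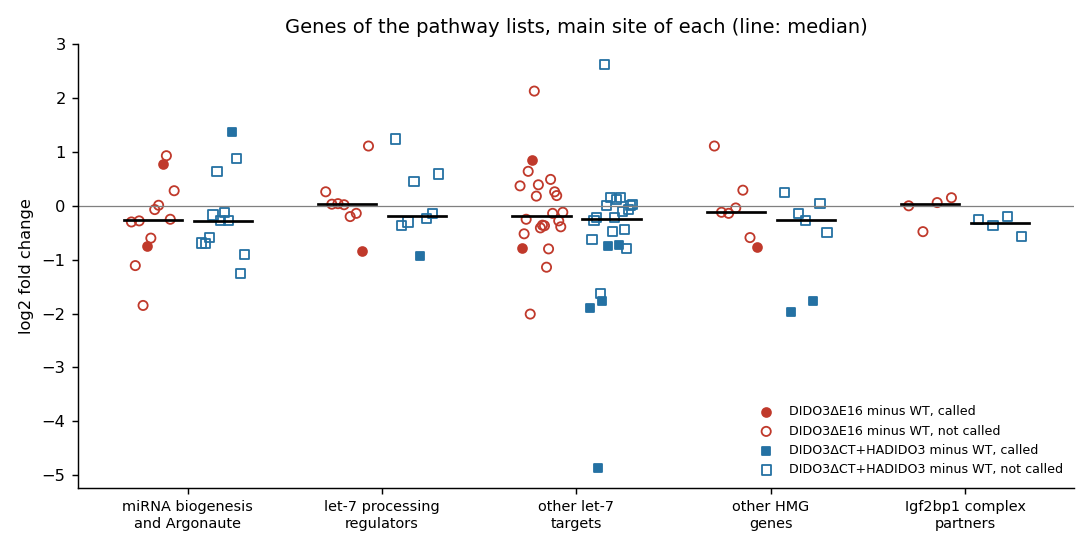
Log2 fold change from WT (vertical axis) of the main sites of 5 pathway lists (horizontal axis), in DIDO3ΔE16 (circles) and DIDO3ΔCT+HADIDO3 (squares); each point is a gene, filled where called, and lines are list medians. The medians lie between −0.31 and 0.03, and the lowest point is Hras at −4.86, at a site that shares bases with another.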

How the data were processed

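Total RNA of WT, DIDO3ΔE16 and DIDO3ΔCT+HADIDO3 ESC was sequenced. The authors used BWA-MEM (0.7.15) for alignment to mm10, Picard against duplicates and StringTie (1.3.3) over UCSC 3′UTRs extended by 2 kb. The deposited values are TPM per feature and library, and the coverage and coordinates deposited by the authors are in reads per base and base positions (mm10). The authors tested with edgeR; here, TPM of features with identical coordinates were summed and libraries scaled by trimmed means (30% of log2 ratios dropped at either end), and log2(TPM + 0.1) was fitted with limma (3.58.1, R 4.3.3; trend and robust, 2-sided, Benjamini-Hochberg over all sites). This fit was tested on simulated data with normal noise, which held no spread within groups as wide as that of Igf2bp1. Tables and figures were made with pandas (2.3.3), numpy (2.4.6) and matplotlib (3.10.9) in Python (3.11.15). Genes were named by GENCODE M21; let-7 sequences are from RefSeq. Of the gene lists, called genes with at least 1 TPM in a group are named, the 4 largest changes per list and comparison. The members and lists were chosen with earlier results of these data known. Alternatives were pseudocounts, filters, scalings, other summations, moderation, thresholds, flow cells, left-out libraries and a replicate block; for the gene sum of Hmga2, scalings, flow cells and left-out libraries were added after seeing the data. Exon usage and ChIP-seq were not analysed here.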

Additional observations from a re-analysis of the deposited data

Results flagged for a closer look

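For 6 of the 9 genes the change from WT differed between the mutant lines, as tested by comparing the lines directly, without WT. The log2 fold change between the lines was 0.82 for Lin28a, −0.92 for Lin28b, 0.37 for Trim71, −1.84 for Hmga1, 0.94 for Hmga2 and −1.19 for Igf2bp3, each with an adjusted p under 0.05 by limma with Benjamini-Hochberg, as had 10417 of 21172 sites (49.2%). All but Trim71 also reached the fold threshold, as 27.4% of all sites did. At the main sites of Trim71, Hmga1 and Igf2bp3 the lines lay on opposite sides of WT in every library, as did the gene sum of Hmga2, although the difference of Hmga1 between DIDO3ΔCT+HADIDO3 and WT was not called. At Lin28b both lines lay below WT in every library, and DIDO3ΔE16 further so.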

How the results depend on the processing

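With the replicate number as a block (WT replicate 2-3 as number 2, WT replicate 4 with no partner), which leaves fewer degrees of freedom and 2 pairs for each comparison with WT, limma called 0 sites and 0 of the 9 genes in DIDO3ΔE16 and 0 and 0 in DIDO3ΔCT+HADIDO3 (3355 sites and 3 genes, and 3654 sites and 1 gene, past the fold threshold at an unadjusted p under 0.05), and 5183 sites and 5 genes between the lines; libraries of the same number were not alike, with correlations of 0 to 0.04, or −0.03 to 0.02 with WT replicate 2-3 taken as number 3, against −0.05 to 0.04 over all pairs between groups. Only 5 of the genes have a main site that shares no base with another on its strand; among these, 1 was called in DIDO3ΔE16 and 2 between the lines. An adjusted p of 0.01 left 2112 sites in DIDO3ΔE16. In DIDO3ΔCT+HADIDO3, quantile normalization left 0 genes (0 at an unadjusted p), while gene sums gave 2 (Hmga2 at −0.72, and −0.76 to −0.64 in fits of the gene sum chosen after seeing the data) and a 1.5-fold threshold gave 2. Quantile normalization moved the share of higher calls in DIDO3ΔE16 from 67.4% to 55%.

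Signs reversed for Igf2bp1 in DIDO3ΔE16 with a mean of at least 1 TPM (0.02), no scaling (0.05), single features (0.02), flow cell family as covariate (1.64), only WT replicate 2-3 (1.63) and the block (3.10). For Lin28a in DIDO3ΔE16 they reversed with gene sums (−0.01), flow cell (−0.04), only WT replicate 2-3 (−0.04) and the block (−0.03). For Dis3l2 the same 3 gave −0.95, −0.96 and −0.80 in DIDO3ΔE16 and −0.80, −0.81 and −0.14 in DIDO3ΔCT+HADIDO3, and for Igf2bp2 there the block gave −0.36. Leaving out single libraries gave −2.06 to 1.92 for Igf2bp1, −0.02 to 0.03 for Lin28a and −0.42 to 1.75 for Dis3l2 in DIDO3ΔE16. In DIDO3ΔCT+HADIDO3 it gave −0.27 to 1.90 for Dis3l2, −0.12 to 2.29 for Igf2bp2 and −0.31 to 0.08 for Hmga2, and between the lines −0.55 to 0.09 for Dis3l2 and −0.18 to 2.22 for Igf2bp2. Where no cause is named, the cause was not tested. Leaving out single libraries gave 3 or 4 genes in DIDO3ΔE16, 1 in DIDO3ΔCT+HADIDO3 and 5 between the lines. Over all alternatives but the block, the calls of Lin28b, Hmga1 and Igf2bp3 in DIDO3ΔE16 held wherever their sites were tested. Mean coverage of the main site was lowest at Dis3l2, Igf2bp2, Igf2bp1 and Hmga2, with 0.563, 4.23, 4.46 and 10.3 reads per base in the lowest library. At Igf2bp2 and Igf2bp1 the highest library had 148 and 295 reads per base, so low coverage there is not low depth of the libraries.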

Other observations

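Genes were also grouped by the number of CTACCTC matches in their longest 3′UTR, a grouping chosen after the values of the 9 genes were seen. In DIDO3ΔE16 the median log2 fold change from WT was −0.004 over 13182 genes with 0 matches, −0.011 over 1338 genes with 1 match and 0.048 over 189 genes with 2 or more. In DIDO3ΔCT+HADIDO3 the medians were −0.052 over 12949 genes, −0.021 over 1330 genes and −0.048 over 188 genes. Genes with 2 or more matches were called higher in 12.2% and lower in 3.17% of cases in DIDO3ΔE16, where genes with 0 matches were called higher in 11.3% and lower in 4.42%. In DIDO3ΔCT+HADIDO3 the shares were 11.7% and 6.38% with 2 or more matches and 9.77% and 8.09% with 0. These are descriptions over genes measured at their main sites, with no test between the groups of genes.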
